A study of Mus musculus with 9 samples.

Results

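The Wnt pathway was described through 57 protein-coding genes out of 55536 gene models in the count files, chosen by symbol alone: 19 Wnt ligands, 4 R-spondins, 3 LGR receptors, 10 frizzled receptors, the co-receptors Lrp5 and Lrp6, 10 secreted antagonists, 5 genes of beta-catenin and its destruction complex, and 4 TCF/LEF factors. By the labels, RNA was sequenced from quadriceps muscle of C57BL/6 mice after volumetric muscle loss, the surgical removal of a piece of muscle. Both groups share strain, tissue, injury and a labelled age of 6 weeks, and differ in the genotype label: 4 libraries are labelled wild type and 5 are labelled Il17ra-/-, a symbol for loss of a receptor subunit for interleukin-17 cytokines. The labels conflict on 2 points, with saline and 1 week in the characteristics of each sample and PCL and 6 weeks in the extraction protocol. The design text speaks of 3 animals per genotype, no label ties a library to one animal, and p-values measure the spread between these libraries. The labels give no details of the Il17ra allele, and wild-type and Il17ra-/- replicates are named by label throughout.

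Wnt proteins are secreted ligands that bind a frizzled receptor together with LRP5 or LRP6. In the canonical branch this stops a destruction complex of AXIN, APC and GSK3 from marking beta-catenin for degradation, and beta-catenin then switches on genes with TCF/LEF factors. R-spondins bind LGR4, LGR5 or LGR6 and keep receptors on the cell surface, SFRP proteins and WIF1 bind Wnt proteins, and several DKK proteins bind LRP5 and LRP6. In skeletal muscle the pathway is known for its roles in satellite cells, the muscle stem cells, and in the fibroblasts and fibro-adipogenic progenitors of connective tissue.

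The libraries held 31.3 to 46.4 M (mega) counts. Levels are given as CPM (counts scaled to equal library size) after TMM scaling, in replicate order, and levels of different genes are compared only as CPM per kb of exon. The targeted gene Il17ra stood at 75.9, 107, 85.4 and 119 CPM under the wild-type label and at 199.8, 185, 181, 284 and 191 CPM under the Il17ra-/- label. The transcript was thus higher where the label names a knockout (log2 fold change 1.11 (SE 0.17, 95% interval 0.75 to 1.46, adjusted p = 0.00208)), and directions are given by label only. Wild-type replicate 2 lay apart on the first principal component and had the fewest genes with a count (17256, against 18248 to 20945 in the others), and Il17ra-/- replicate 1 lay apart on the second. The muscle gene Acta1 stood at 439 to 1886 CPM and Pdgfra, a gene of fibro-adipogenic progenitors, at 602 to 1218 CPM. The endothelial gene Pecam1 did not exceed 3.38 CPM, though 10 endothelial markers summed to 275 to 468 CPM per library. Ptprc, the pan-leukocyte gene, did not exceed 0.461 CPM. Summed per library, 15 markers of fibro-adipogenic progenitors gave 59145 to 76175 CPM and 14 muscle fibre markers 1473 to 5105 CPM. The 10 tendon markers gave 4847 to 8575 CPM. These sums are not scaled by exon length. The sum of the fibro-adipogenic progenitor list was the largest of the cell type lists in every library. Which cell types this RNA came from was not tested. How far the Wnt levels below stand for whole injured muscle was not tested. In RNA pooled from many cells, fewer cells of a type and less RNA per cell cannot be told apart.

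None of the members differed between the groups past the threshold. Of the 57 members, 47 passed the filter on low counts, and 0 of these 47 had an adjusted p under 0.05 in edgeR's quasi-likelihood test over 16039 genes, of which 3.06% were called (1.35% with the higher and 1.71% with the lower mean in libraries labelled Il17ra-/-). Scaling by library totals only turned the split of calls from 217 higher and 274 lower to 330 higher and 232 lower. DESeq2 and limma voom also called 0 members. An unadjusted edgeR p under 0.05 was reached by 4 members (Fzd7, Wnt2, Fzd4 and Fzd5), which is 8.51% of those tested against 16.4% of all tested genes. The groups did not overlap for 1 member, Fzd7, which was higher, against 9.18% of all tested genes (4.63% higher and 4.56% lower). Without the libraries that stand apart, wild-type replicate 2 and Il17ra-/- replicate 1, the count of called members was again 0. The members' median log2 fold change (labelled Il17ra-/- minus labelled wild type) was 0.06, with 26 positive and 21 negative values, against −0.00 over all tested genes.

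The intervals show how much difference these libraries leave room for. The 95% interval of the log2 fold change lay inside −1 to 1 for 32 of the 47 tested members. For the other 15 it reached past at least 1 of these limits, and none of these 15 exceeded 15.1 CPM in any library. A p that misses the threshold therefore does not show that a gene was alike in the groups. Of the 10 members not tested, Wnt3, Wnt3a, Wnt7a, Wnt8a, Wnt8b and Dkk1 had 0 counts in all 9 libraries, which allows levels of up to 0.0638 to 0.0984 CPM at 3 counts per library. Lef1, Wnt7b, Wnt9b and Dkk4 had counts in 1 to 3 libraries and did not exceed 0.4931 CPM.

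**Figure D1:**
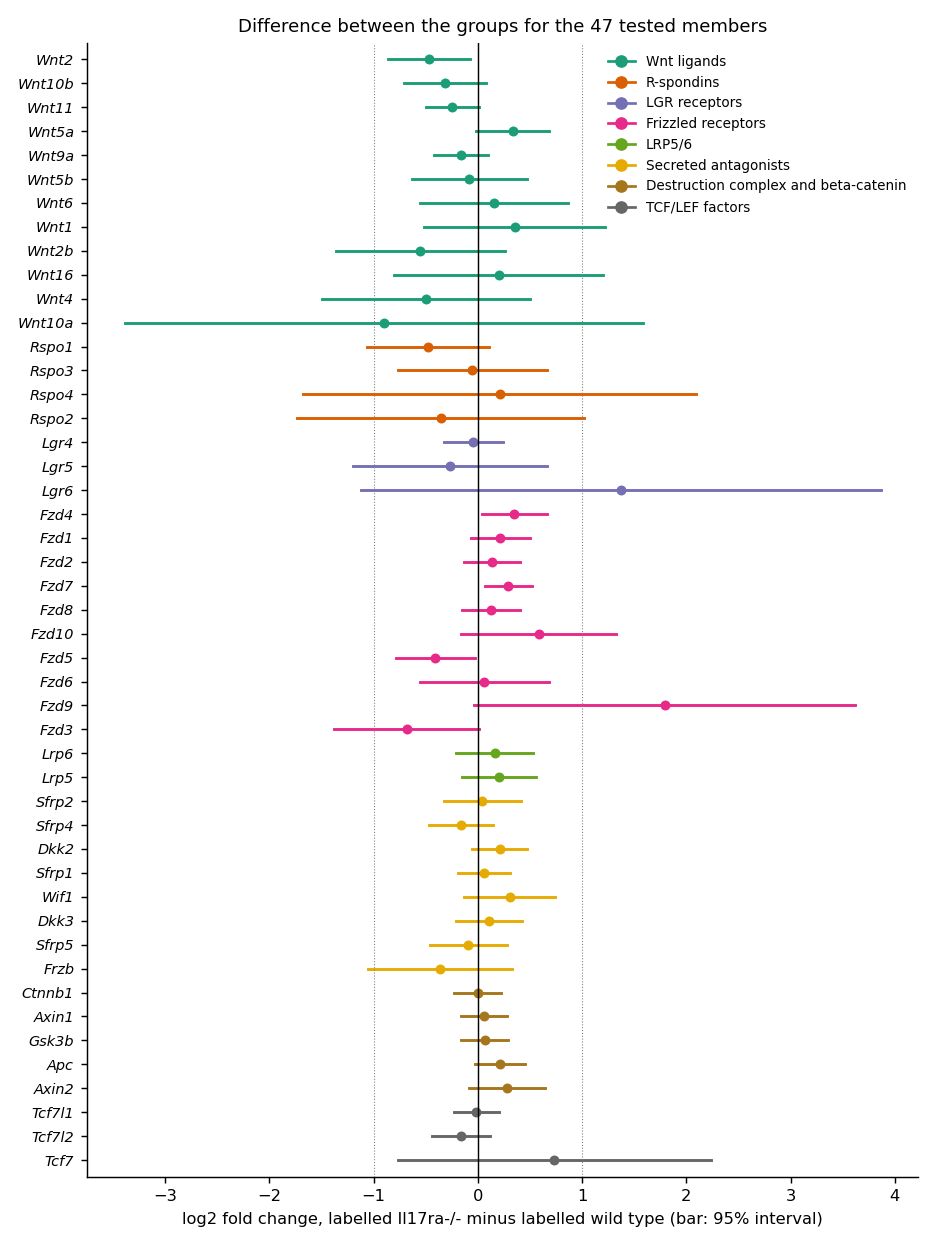
Log2 fold change of the 47 tested members, labelled Il17ra-/- minus labelled wild type, with the 95% interval as a bar and dotted lines at −1 and 1. The intervals of Fzd7, Fzd4, Wnt2 and Fzd5 miss 0 before adjustment, and those of Wnt10a, Lgr6, Rspo4 and Fzd9 are among the widest.

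Among the ligands, Wnt2, Wnt10b and Wnt11 were the most abundant per exon length and together made up 60.8% to 77.3% of the summed ligand level in each library. In the libraries labelled wild type, Wnt2 stood at 35.4 ± 10.3 CPM per kb (SD, n = 4), Wnt10b at 28.6 ± 6.77, Wnt11 at 19.4 ± 2.78, Wnt9a at 12.1 ± 1.75 and Wnt5a at 10.2 ± 1.799. Wnt2 was above Wnt10b in 7 of 9 libraries and Wnt5a above Wnt9a in 5 of 9, so neither order holds in every library. These 5 genes stood apart from the rest, with Wnt9a above Wnt5b in 9 of 9 libraries without overlap of their ranges.

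Wnt2, a ligand of the canonical branch made by mesenchymal cells, stood at 51.2, 101, 70.9 and 96.6 CPM under the wild-type label and at 48.2, 65.95, 59.1, 48.5 and 67.3 CPM under the Il17ra-/- label. Wild-type replicates 2 to 4 lay above all libraries labelled Il17ra-/-, and wild-type replicate 1 lay among them. The log2 fold change was −0.47 (SE 0.18, 95% interval −0.86 to −0.07, adjusted p = 0.221), and over 19 alternative analyses the adjusted p ran from 0.0540, without wild-type replicate 1, to 0.512, without both libraries that stand apart. Wnt10b, a ligand known for holding back fat cell formation, stood at 68.02, 97.99, 98.2 and 124 CPM under the wild-type label and at 55.3, 66.95, 91.2, 84.9 and 92.2 CPM under the Il17ra-/- label. Here too the highest library was a wild-type one, replicate 4, and the groups overlapped, with a log2 fold change of −0.31 (SE 0.18, 95% interval −0.70 to 0.07, adjusted p = 0.415).

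Wnt11, a ligand best known for signalling without beta-catenin, stood at 67.6, 92.6, 87.1 and 74.3 CPM under the wild-type label and at 74.1, 59.1, 72.2, 69.1 and 65.03 CPM under the Il17ra-/- label. Wild-type replicates 2 to 4 lay above all libraries labelled Il17ra-/-, replicate 4 by a narrow margin, and replicate 1 lay among them. The log2 fold change was −0.24 (SE 0.12, 95% interval −0.50 to 0.01, adjusted p = 0.324). Wnt5a, the main ligand of the beta-catenin-independent branch, stood at 78.2, 66.8, 99.8 and 75.03 CPM under the wild-type label and at 121, 106, 113, 68.3 and 96.7 CPM under the Il17ra-/- label. Il17ra-/- replicates 1 to 3 were above every wild-type library and replicate 4 was near the lowest, with a log2 fold change of 0.33 (SE 0.16, 95% interval −0.02 to 0.68, adjusted p = 0.328). Wnt5a and Wnt11, both tied to the beta-catenin-independent branch, thus had differences of opposite sign, and neither passed.

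Wnt9a, the remaining one of the 5 leading ligands and known for a role in joint formation, ranged from 32.5 to 48.8 CPM over the 9 libraries. The other 7 tested ligands were lower per kb. Wnt5b ranged from 5.75 to 13.4 CPM, with its highest value in wild-type replicate 4. Wnt1, Wnt2b, Wnt4, Wnt6 and Wnt16 lay between 0.849 and 6.40 CPM in every library, and Wnt10a did not exceed 1.92 CPM. Wnt7a, the ligand known to act on satellite cells through Fzd7, is among the genes without a count.

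Mouse Wnt genes often lie side by side, and 4 such pairs are among the members. On chromosome 15, Wnt10b and Wnt1 lie 11706 bases apart on opposite strands, and their mean levels over the 9 libraries were 25.5 and 1.30 CPM per kb. Wnt9a and Wnt3a lie 16175 bases apart on chromosome 11, at 11.4 CPM per kb and without a count. On chromosome 1 Wnt6 and Wnt10a are 6193 bases apart, at 1.49 and 0.235 CPM per kb. Wnt3 and Wnt9b, 24328 bases apart on chromosome 11, were without a count and with 9 counts in all. The more abundant gene of the first 2 pairs is thus among the 5 leading ligands, while its neighbour was far lower or without a count.

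**Figure D2:**
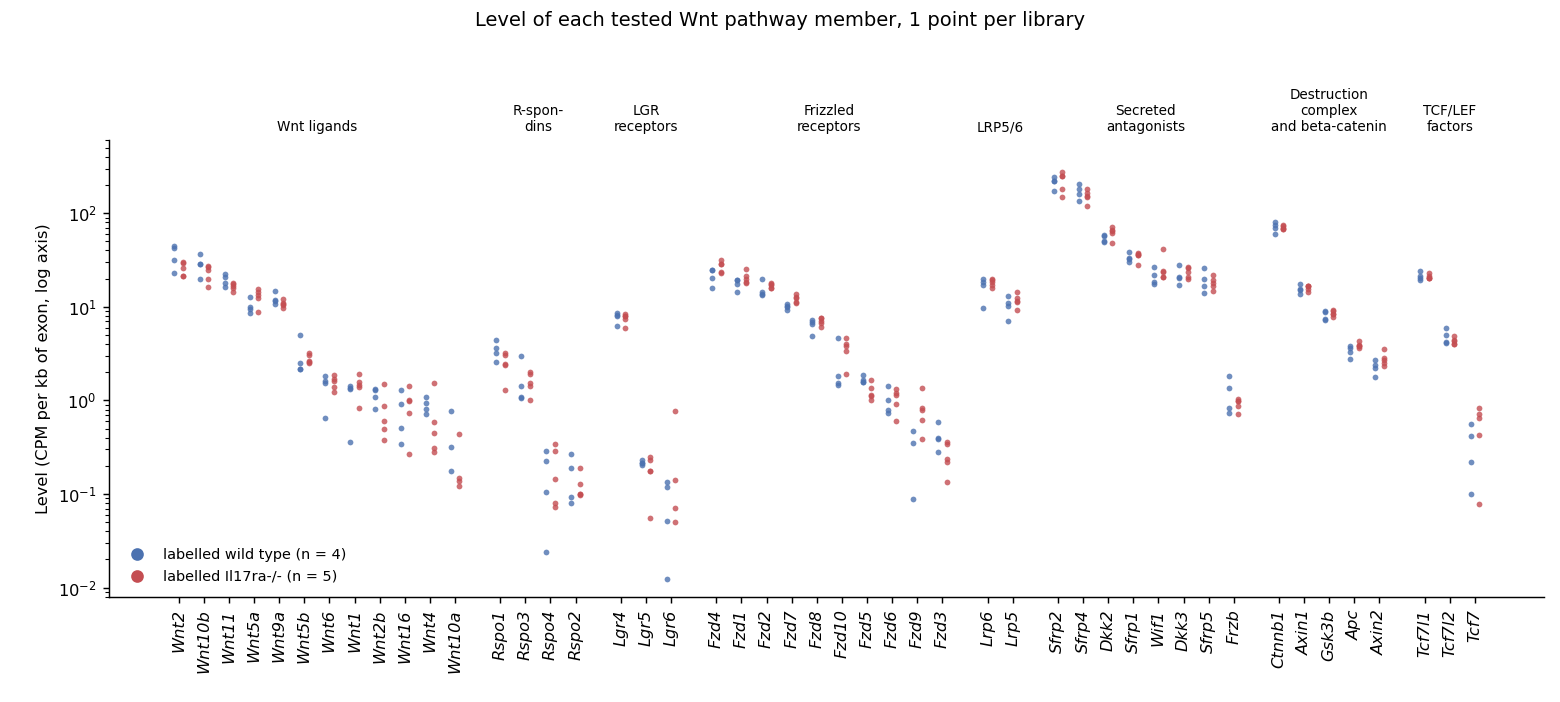
Level of the 47 tested members in CPM per kb of exon on a log axis, 1 point per library, grouped by role; 4 values at 0 (Wnt10a in 2 libraries, Fzd9 and Lgr6 in 1 each) cannot be drawn. Sfrp2 and Sfrp4 lie above all other members, and the levels of 1 role span several orders of magnitude.

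R-spondins were low, and their receptors were almost all Lgr4. Rspo1 stood at 7.07, 6.17, 8.61 and 4.96 CPM under the wild-type label and at 6.18, 4.72, 4.68, 2.52 and 5.94 CPM under the Il17ra-/- label. The lowest library was Il17ra-/- replicate 4 and the groups overlapped, with a log2 fold change of −0.48 (SE 0.27, 95% interval −1.07 to 0.11, adjusted p = 0.412). Rspo3, an R-spondin of endothelial and stromal cells, ranged from 3.26 to 9.19 CPM under the wild-type label and from 3.15 to 6.17 CPM in the others. Its highest value was in wild-type replicate 2, and the log2 fold change of −0.05 became 0.41 without that library (adjusted p = 0.5261). Rspo2 and Rspo4 did not exceed 1.38 CPM.

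Lgr4 made up 89.6% to 97.4% of the summed level of the 3 LGR receptors. Its level was 48.2, 36.4, 47.01 and 51.1 CPM under the wild-type label and at 46.4, 43.1, 49.5, 35.3 and 47.5 CPM under the Il17ra-/- label, the groups overlapped, and the log2 fold change was −0.04 (SE 0.13, 95% interval −0.33 to 0.24, adjusted p = 0.907). Lgr5, a stem cell marker of epithelia and itself a Wnt target, ranged from 0.569 to 2.57 CPM. Lgr6 stood at 0.356, 0.8201, 0.0838 and 0.918 CPM under the wild-type label and at 0, 0.489, 0.345, 0.976 and 5.24 CPM under the Il17ra-/- label. Il17ra-/- replicate 5 alone lay above 1 CPM for Lgr6, and the log2 fold change of 1.37 (adjusted p = 0.604) was −0.26 without it (adjusted p = 0.938).

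Fzd4, Fzd1 and Fzd2 were the most abundant frizzled receptors, followed by Fzd7 and Fzd8. In the libraries labelled wild type they stood at 21.5 ± 4.098, 17.7 ± 2.26, 15.3 ± 2.92, 9.995 ± 0.656 and 6.42 ± 1.07 CPM per kb in that order (SD, n = 4). In those labelled Il17ra-/- the values were 27.3 ± 3.72, 20.6 ± 3.14, 16.8 ± 0.991, 12.2 ± 1.096 and 7.03 ± 0.589 CPM per kb (SD, n = 5). The 3 leading receptors held 68.7% to 74.1% of the summed frizzled level, and Fzd7 lay above Fzd8 without overlap of their ranges. A positive log2 fold change was found for 8 of the 10 frizzled genes, with a median of 0.18, and none passed.

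Fzd7, the receptor through which Wnt7a acts on satellite cells, is a gene of 1 exon (GRCm38, chromosome 1, 59482424 to 59486955, plus strand) and had the smallest p of the members. It stood at 41.5, 44.7, 46.3 and 48.6 CPM under the wild-type label and at 57.6, 49.98, 62.4, 55.7 and 51.6 CPM under the Il17ra-/- label. All libraries labelled Il17ra-/- lay above all those labelled wild type, by a narrow margin between wild-type replicate 4 and Il17ra-/- replicate 2. The log2 fold change was 0.29 (SE 0.10, 95% interval 0.07 to 0.52, adjusted p = 0.177). Over the 19 alternatives the adjusted p of Fzd7 ran from 0.0912, with libraries scaled by their totals only, to 0.360, without Il17ra-/- replicate 3, and the fold change stayed positive.

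Promoters are shown for Fzd7 and Wnt11, the members among the 12 with the smallest p with a window that held a TCF/LEF motif. Axin2, the textbook target of beta-catenin, is shown too, and its window held none. A further window of Wnt11 (chr7:98838595-98838844) held no match and is not shown. Of the 12, Fzd3, Wnt5a and Apc had no window at hand. The windows are the 250 bases before the start of the RefSeq transcript on GRCm38.p6, plus strand: chr1:59481897-59482146 for Fzd7, chr7:98834862-98835111 for Wnt11 and chr11:108920099-108920348 for Axin2. Capitals mark matches to the TCF/LEF letters, which are CTTTGAA or else CTTTGAT or else CTTTGTA or else CTTTGTT on either strand. Both matches lie on the strand opposite to the gene and begin 130 and 51 bases before the start, and no other motif was searched. The RefSeq start used for Fzd7 lies upstream of the gene start given above.
Fzd7: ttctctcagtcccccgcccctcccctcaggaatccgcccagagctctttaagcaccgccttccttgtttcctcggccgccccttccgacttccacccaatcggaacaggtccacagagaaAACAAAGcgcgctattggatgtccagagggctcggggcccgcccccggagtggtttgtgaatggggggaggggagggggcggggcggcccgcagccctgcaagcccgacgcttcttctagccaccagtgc
Wnt11: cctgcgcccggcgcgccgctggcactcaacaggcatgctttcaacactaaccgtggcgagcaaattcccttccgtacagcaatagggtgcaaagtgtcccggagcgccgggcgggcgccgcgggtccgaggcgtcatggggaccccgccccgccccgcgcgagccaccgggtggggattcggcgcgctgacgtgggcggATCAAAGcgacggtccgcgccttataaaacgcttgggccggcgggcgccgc
Axin2: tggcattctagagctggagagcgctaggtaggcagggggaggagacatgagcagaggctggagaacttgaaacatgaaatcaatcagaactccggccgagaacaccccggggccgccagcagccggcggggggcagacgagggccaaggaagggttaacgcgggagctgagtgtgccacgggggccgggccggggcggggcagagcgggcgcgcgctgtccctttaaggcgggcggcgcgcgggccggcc
RefSeq windows were at hand for 38 of the 57 members, and 6 of their 47 windows (12.8%) held a match, against 14.8% of all 32851 windows of this length. Besides Fzd7 and Wnt11 these were windows of Wnt5b, Dkk1, Lef1 and Tcf7l2. A match is a run of letters and not a measured binding site.

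Fzd4, which also serves as the receptor for norrin in blood vessels, stood at 165, 108, 166 and 137 CPM under the wild-type label and at 214, 195, 194, 156 and 159 CPM under the Il17ra-/- label. The lowest library was wild-type replicate 2, and Il17ra-/- replicates 4 and 5 lay within the wild-type range, with a log2 fold change of 0.35 (SE 0.14, 95% interval 0.04 to 0.66, adjusted p = 0.245). Fzd1 stood at 82.04, 61.2, 80.5 and 74.3 CPM under the wild-type label and at 108, 90.2, 82.6, 77.6 and 74.7 CPM under the Il17ra-/- label and Fzd8 ranged from 29.2 to 45.2 CPM, both with overlapping groups. Fzd2 stood at 53.1, 71.9, 48.6 and 50.8 CPM under the wild-type label and at 65.1, 64.7, 62.8, 58.05 and 57.5 CPM under the Il17ra-/- label. Wild-type replicate 2 was the highest of the 9 libraries for Fzd2, and the log2 fold change of 0.14 (adjusted p = 0.633) was 0.28 without it (adjusted p = 0.110).

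Fzd5 and Fzd3 were the frizzled genes with lower means in the libraries labelled Il17ra-/-. Fzd5, a canonical receptor with essential roles in vessels of the yolk sac and in the gut, stood at 12.98, 10.9, 11.5 and 10.8 CPM under the wild-type label and at 11.4, 7.79, 7.83, 7.05 and 9.39 CPM under the Il17ra-/- label. Il17ra-/- replicate 1 lay within the wild-type range and the other 4 lay below it, with a log2 fold change of −0.41 (SE 0.18, 95% interval −0.79 to −0.03, adjusted p = 0.265). Fzd3, known for planar polarity and axon guidance, stood at 5.04, 3.58, 7.602 and 4.99 CPM under the wild-type label and at 1.704, 4.38, 3.04, 2.82 and 4.58 CPM under the Il17ra-/- label. The groups overlapped, with a log2 fold change of −0.68 (SE 0.32, 95% interval −1.38 to 0.02, adjusted p = 0.316).

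Fzd9 and Fzd10 were low and varied between libraries. Fzd9 stood at 1.07, 0, 0.811 and 0.201 CPM under the wild-type label and at 0.8904, 1.404, 1.81, 3.09 and 1.91 CPM under the Il17ra-/- label, from 0 to 114 counts, and the groups overlapped, with a log2 fold change of 1.79 (SE 0.85, 95% interval −0.03 to 3.62, adjusted p = 0.313). Fzd10 stood at 4.74, 4.99, 5.87 and 15.1 CPM under the wild-type label and at 12.97, 6.28, 10.9, 14.99 and 12.4 CPM under the Il17ra-/- label. Wild-type replicate 4 was the highest of the 9 libraries, and Il17ra-/- replicate 2 stood near the other wild-type libraries. With all libraries the log2 fold change of Fzd10 was 0.58 (SE 0.35, 95% interval −0.16 to 1.33, adjusted p = 0.429). Without wild-type replicate 4 it was 1.15 (adjusted p = 0.0442), the 1 call among the members in any of the 19 alternatives, and without both libraries that stand apart it was 0.38 (adjusted p = 0.699).

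**Figure D3:**
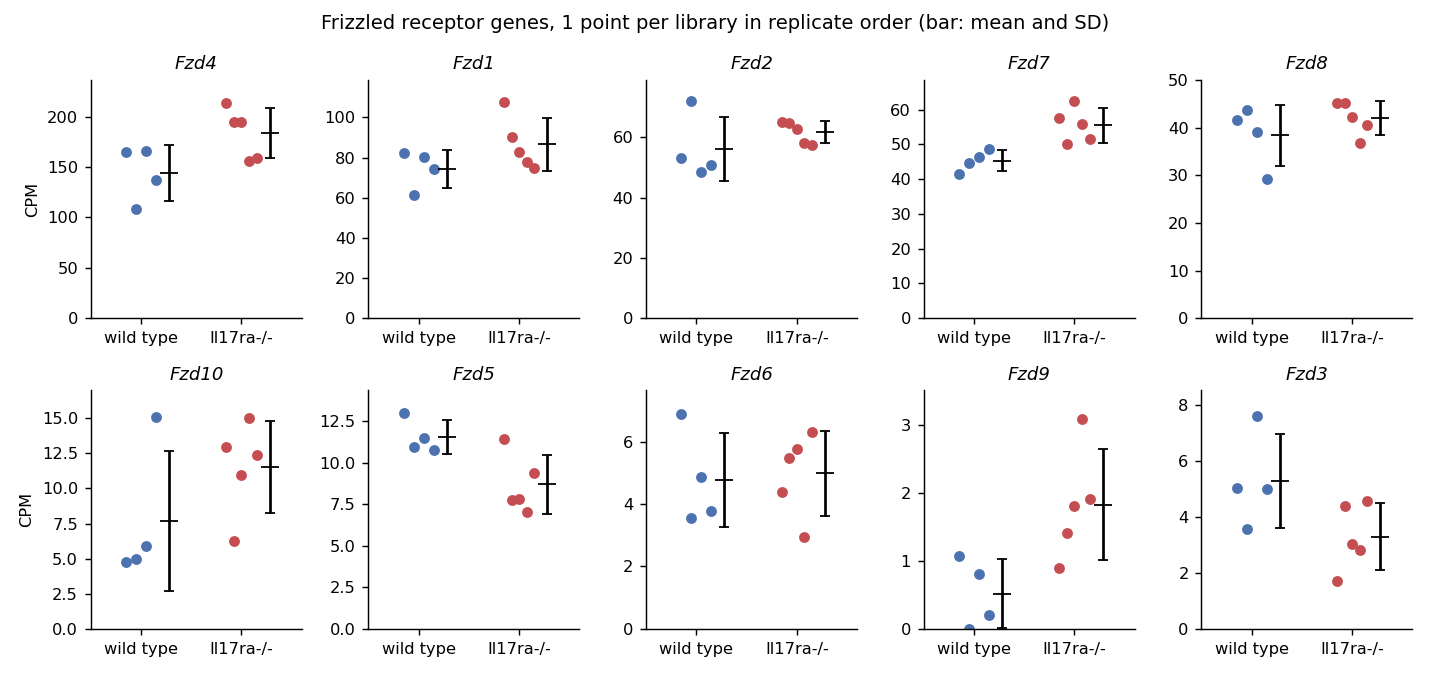
CPM of the 10 frizzled genes, 1 point per library in replicate order from left to right within each group, with the mean and SD as a bar beside the points. Fzd7 is the gene whose groups do not overlap, and wild-type replicate 4 stands apart from its group in Fzd10.

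Summed over the 10 genes, the frizzled level was 71.6 to 80.4 CPM per kb in the libraries labelled wild type and 83.0 to 103 CPM per kb in those labelled Il17ra-/-. This was the 1 of the 8 role sums whose groups did not overlap, and it was singled out after the values were seen. Among all tested genes, taken singly, the groups did not overlap for 9.18%, so 1 of 8 is not set apart from that share. The groups were also apart under each of the 4 scalings and after leaving out any 1 frizzled gene. The smallest gap came when Fzd10 was left out (78.9 against 79.2 CPM per kb). These sums reuse the same libraries and are not independent evidence. Markers of several cell types also differed between the groups. Of 10 markers of mural cells, the pericytes and smooth muscle of vessels, 6 were called higher, with summed levels of 1739 to 2081 CPM under the wild-type label and 2743 to 3511 CPM in the others, and Rgs5 rose from 471 ± 49.9 to 831 ± 142 CPM (adjusted p = 0.0042). Of 10 satellite cell markers 3 were called higher, with summed levels of 392 to 502 and 507 to 641 CPM. Pax7 rose from 32.9 ± 7.46 to 62.7 ± 7.34 CPM (adjusted p = 0.00422). Of these 10 markers 9 had positive values and 1 a negative one (−0.40), the latter without overlap of the groups. Of 14 muscle fibre markers 4 were called higher, with sums of 1473 to 3596 and 3812 to 5105 CPM. The gene Des is in both the muscle fibre and the mural cell list, so these lists are not fully separate. Of 10 adipocyte markers 1 was called higher and all 10 had positive values (median 1.12), with overlapping sums of 75.7 to 131 and 88.8 to 268 CPM. Markers of fibro-adipogenic progenitors leaned the other way, with 11 of 15 values negative (median −0.25), 2 called lower and 1 higher, and sums of 71764 to 76113 and 59145 to 76175 CPM. Leukocyte markers gave 1 call, lower, with sums of 18.7 to 36.1 and 8.999 to 17.0 CPM, while 4 of the 6 tested had positive values (median 0.84). Markers of endothelium, tendon and Schwann cells gave 0 calls by edgeR, with 2, 2 and 3 of 10 at an unadjusted p under 0.05. The part of these markers in the frizzled levels was not tested.

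**Figure D4:**
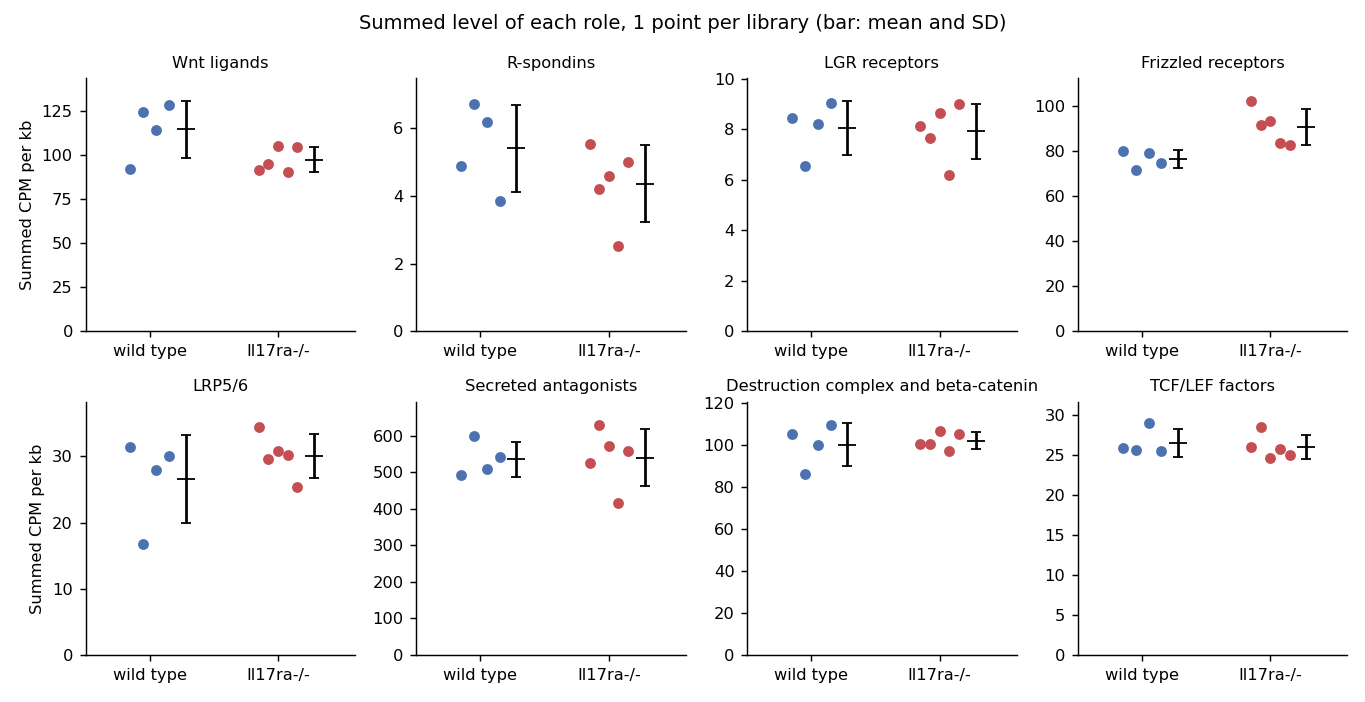
Summed CPM per kb of the members of each role, 1 point per library, with the mean and SD as a bar. The frizzled sums of the libraries labelled Il17ra-/- lie above those labelled wild type, and the groups overlap for the other 7 roles.

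The co-receptors did not separate the groups. Lrp6 stood at 252, 133, 233 and 273 CPM under the wild-type label and at 272, 236, 266, 255 and 219 CPM under the Il17ra-/- label. Wild-type replicate 2 was far below the other 8 libraries, and the log2 fold change of 0.16 (adjusted p = 0.688) was −0.02 without it (adjusted p = 0.966). Lrp5, which is also known for its role in bone mass, stood at 125.6, 68.7, 106 and 98.4 CPM under the wild-type label and at 142, 119.8, 111, 112 and 90.5 CPM under the Il17ra-/- label, and wild-type replicate 2 was again the lowest. Its log2 fold change was 0.21 (SE 0.17, 95% interval −0.15 to 0.56, adjusted p = 0.579). Of all 47 tested members, 14 were lowest in wild-type replicate 2 and 9 were highest in it.

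Secreted antagonists were summed over all 10 genes, the DKK genes included, whose proteins do not all bind Wnt ligands. Their summed level per kb was 4.24 to 5.36 times that of the ligands in the libraries labelled wild type and 4.62 to 6.66 times in those labelled Il17ra-/-. Sfrp2 and Sfrp4, frizzled-related proteins that bind Wnt proteins outside the cell, and Dkk2 made up 76.2% to 84.9% of the antagonist level. In the libraries labelled wild type Sfrp2 stood at 215 ± 30.9 CPM per kb, Sfrp4 at 171 ± 29.8 and Dkk2 at 54.02 ± 4.66 (SD, n = 4). Sfrp2 was above Sfrp4 in 9 of 9 libraries per kb.

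Sfrp2 stood at 368, 525, 474 and 482 CPM under the wild-type label and at 394, 596, 535, 324 and 535 CPM under the Il17ra-/- label. The lowest and the highest of the 9 libraries, replicates 4 and 2, were both labelled Il17ra-/-, and the log2 fold change was 0.04 (SE 0.17, 95% interval −0.32 to 0.41, adjusted p = 0.926). Sfrp4 stood at 677, 859, 564 and 756 CPM under the wild-type label and at 628, 756, 638, 495 and 682 CPM under the Il17ra-/- label. Its highest value was in wild-type replicate 2 and its lowest in Il17ra-/- replicate 4, with a log2 fold change of −0.16 (SE 0.14, 95% interval −0.47 to 0.15, adjusted p = 0.632). Dkk2, which binds LRP5 and LRP6, stood at 209.8, 183, 219 and 188 CPM under the wild-type label and at 265, 242, 244, 179 and 229 CPM under the Il17ra-/- label. The 2 groups overlapped, and the log2 fold change was 0.21 (SE 0.12, 95% interval −0.05 to 0.47, adjusted p = 0.416). For the 3 most abundant antagonists the intervals thus lay between −0.47 and 0.47 on the log2 scale.

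Wif1, a secreted Wnt-binding inhibitor, stood at 43.01, 64.7, 53.7 and 44.5 CPM under the wild-type label and at 101, 58.6, 50.02, 57.8 and 51.02 CPM under the Il17ra-/- label. Il17ra-/- replicate 1 was far above the other libraries of its group, and the log2 fold change of 0.31 (adjusted p = 0.486) was 0.08 without it (adjusted p = 0.849). Sfrp1 ranged from 122 to 167 CPM, Dkk3 from 57.6 to 95.1 CPM and Sfrp5 from 26.9 to 49.96 CPM, each with overlapping groups. Frzb, the frizzled-related protein of cartilage, ranged from 2.31 to 5.87 CPM.

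Beta-catenin and the destruction complex gave 5 tested members with overlapping groups. Ctnnb1, which encodes beta-catenin, stood at 384, 313, 358 and 414 CPM under the wild-type label and at 355, 363, 389.6, 348 and 379 CPM under the Il17ra-/- label. The wild-type libraries covered the range of the others, and the log2 fold change was −0.00 (SE 0.10, 95% interval −0.23 to 0.22, adjusted p = 0.997). Of its exon bases, 14.6% are shared with Ulk4. Read pairs in shared exons are counted for neither gene, and Ulk4 had 829 counts in all against 128798 for Ctnnb1. Exon bases are likewise shared with another gene model by Fzd5 (17.8%), Sfrp2 (16.1%), Lef1 (13.7%), Rspo3 (13.1%) and Wnt11 (8.80%). The same holds for Wnt7b (6.6%), Wnt5a (4.58%), Tcf7l1 (4.56%), Axin2 (3.8%) and Fzd6 (3.2%). Levels of all these genes may be understated.

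The scaffold Axin1 stood at 66.8, 52.7, 59.1 and 57.5 CPM under the wild-type label and at 64.2, 63.3, 59.96, 55.7 and 64.5 CPM under the Il17ra-/- label, with a log2 fold change of 0.06 (SE 0.10, 95% interval −0.16 to 0.28, adjusted p = 0.824). The kinase gene Gsk3b stood at 73.6, 71.8, 88.9 and 85.8 CPM under the wild-type label and at 83.01, 76.2, 90.6, 81.5 and 87.7 CPM under the Il17ra-/- label, with a log2 fold change of 0.07 (SE 0.10, 95% interval −0.16 to 0.29, adjusted p = 0.801). Apc, the large scaffold that holds beta-catenin in the complex, stood at 53.3, 44.8, 61.3 and 58.2 CPM under the wild-type label and at 62.4, 62.1, 69.8, 61.4 and 59.00 CPM under the Il17ra-/- label. All 5 libraries labelled Il17ra-/- lay above the wild-type mean for Apc, the groups overlapped, and the log2 fold change was 0.21 (SE 0.11, 95% interval −0.03 to 0.45, adjusted p = 0.374).

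The TCF/LEF factors were dominated by Tcf7l1, which held 76.2% to 83.5% of their summed level per kb. Tcf7l1, which acts mostly as a repressor, stood at 80.02, 76.4, 95.1 and 82.9 CPM under the wild-type label and at 84.7, 89.9, 78.9, 80.6 and 79.5 CPM under the Il17ra-/- label, with a log2 fold change of −0.01 (SE 0.10, 95% interval −0.23 to 0.20, adjusted p = 0.961). Tcf7l2, a marker of fibroblasts in muscle connective tissue, stood at 43.8, 52.5, 36.9 and 36.5 CPM under the wild-type label and at 37.9, 42.5, 35.3, 38.6 and 35.3 CPM under the Il17ra-/- label, and its highest value was in wild-type replicate 2. The log2 fold change of Tcf7l2 was −0.16 (SE 0.13, 95% interval −0.44 to 0.11, adjusted p = 0.575). Tcf7, best known from T cells, ranged from 0.204 to 2.17 CPM, and Lef1 had 10 counts in all, in wild-type replicates 3 and 4.

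Among target genes of the pathway, 3 fell and the rest did not pass the test. Axin2, a feedback inhibitor and one of the most widely used readouts of beta-catenin activity, stood at 15.04, 9.84, 13.3 and 12.1 CPM under the wild-type label and at 15.7, 12.8, 13.7, 19.5 and 14.98 CPM under the Il17ra-/- label. Il17ra-/- replicate 4 was the highest and wild-type replicate 2 the lowest, the groups overlapped, and the log2 fold change was 0.28 (SE 0.17, 95% interval −0.08 to 0.65, adjusted p = 0.432). Of 17 further textbook targets 14 were tested, and 3 fell and 0 rose, against 1.71% of all tested genes that were called lower. The list's median log2 fold change was 0.02, with 8 positive and 6 negative values.

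Myc, the growth-promoting transcription factor, stood at 350.1, 507, 314 and 381 CPM under the wild-type label and at 156, 212, 179, 221 and 238 CPM under the Il17ra-/- label. The groups were well apart, and Myc fell with a log2 fold change of −0.95 (SE 0.16, 95% interval −1.28 to −0.61, adjusted p = 0.00419). It was called in the main analysis and in all 19 alternatives. Fgf18, a fibroblast growth factor, stood at 43.5, 54.5, 50.8 and 50.04 CPM under the wild-type label and at 32.9, 29.4, 39.3, 28.3 and 34.6 CPM under the Il17ra-/- label and fell without overlap, with a log2 fold change of −0.59 (SE 0.12, 95% interval −0.86 to −0.33, adjusted p = 0.0163). Bambi, a decoy receptor of the TGF-beta family, stood at 22.98, 23.8, 18.1 and 22.5 CPM under the wild-type label and at 13.6, 16.4, 16.1, 13.7 and 14.7 CPM under the Il17ra-/- label. Bambi fell with a log2 fold change of −0.55 (SE 0.13, 95% interval −0.84 to −0.26, adjusted p = 0.0393). The call of Fgf18 was lost in 3 of the 19 alternatives, which were the replicate block and the fits without wild-type replicate 3 or Il17ra-/- replicate 2. That of Bambi was lost in 12, among them the fit without any single library other than wild-type replicate 3.

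Immediate early genes, a rapid response class to which Myc is often counted, also held calls in this direction. Of 16 such genes 7 were called lower and 0 higher, against 1.71% and 1.35% of all tested genes. Their summed level was 24566 to 27955 CPM under the wild-type label and 17683 to 21654 CPM under the Il17ra-/- label. Whether the 3 falls are tied to these genes or to Wnt signalling was not tested.

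**Figure D5:**
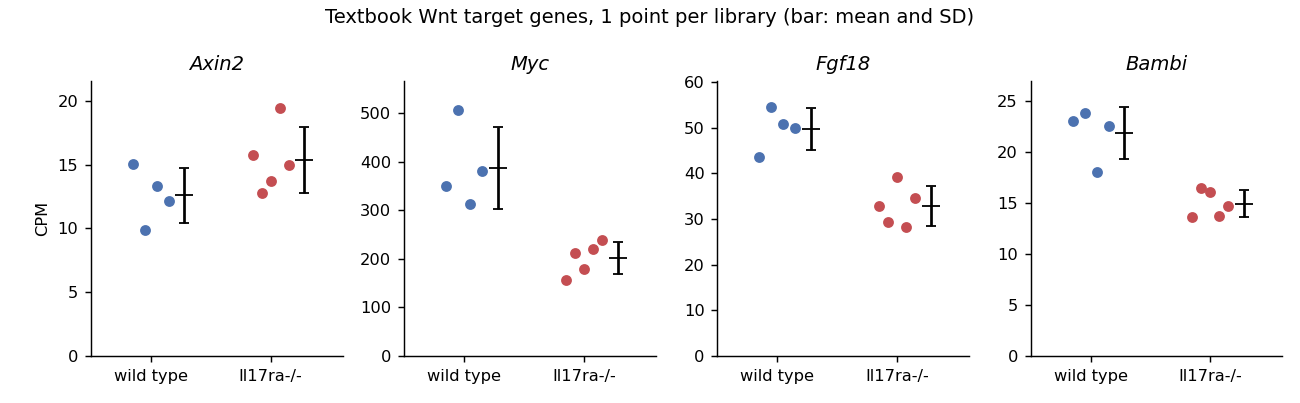
CPM of Axin2, a member and textbook target, and of the 3 further target genes that passed the test, 1 point per library in replicate order, with the mean and SD as a bar. The groups overlap for Axin2 and are apart for Myc, Fgf18 and Bambi, which are lower in the libraries labelled Il17ra-/-.

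The remaining pathway genes gave 0 calls in 4 lists by edgeR. In the list of Wnt secretion and extracellular inhibitors 10 of 13 genes were tested, and the smallest p values belonged to the glypican gene Gpc3 (−0.27, adjusted p = 0.186) and the antagonist gene Sostdc1 (0.80, adjusted p = 0.524). Of the receptors and receptor-turnover genes 13 of 16 were tested, led by Ptk7 (0.58, adjusted p = 0.257) and Prickle2 (0.34, adjusted p = 0.258), both of the planar polarity branch. All 20 cytoplasmic components were tested, led by Amer1, a membrane partner of APC (0.56, adjusted p = 0.0961), and Daam2 (0.41, adjusted p = 0.1498). All 15 nuclear components were tested, led by the co-repressor gene Tle3 (−0.34, adjusted p = 0.134) and Bcl9, a beta-catenin co-activator (0.66, adjusted p = 0.139). At an unadjusted p under 0.05 these lists held 1, 3, 4 and 2 genes (10%, 23.1%, 20% and 13.3% of those tested), against 16.4% of all tested genes. Amer1 was called by DESeq2 (adjusted p = 0.0363) and by edgeR without Il17ra-/- replicate 4 (adjusted p = 0.0310), and limma voom called 0 of these genes. Tle3 (adjusted p = 0.0215) and Nkd2 were called by edgeR without wild-type replicate 2, and Tle3, Bcl9 and Nkd2 without both libraries that stand apart.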

How the data were processed

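RNA-seq libraries with the tissue label quadriceps were analysed, 4 labelled wild type and 5 labelled Il17ra-/-. The deposited values are read-pair counts per gene, which the authors made with featureCounts 1.6.0 over GENCODE M21 exons without strand, per the file headers, after alignment with STAR, per the submitters' processing notes. Libraries were prepared with TruSeq RNA v2, per the labels' protocols. The deposited files also give exon lengths. All 55536 identifiers matched GENCODE M21 (GRCm38). Library totals were 35.3 ± 2.75 M (SD, n = 4) and 41.6 ± 4.52 M (SD, n = 5; exact permutation test, two-sided, p = 0.0635, with 0.0159 the smallest possible).

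Genes were filtered with filterByExpr, scaled with TMM and tested by quasi-likelihood in edgeR 4.0.16 (R 4.3.3), with the genotype label as the only term and Benjamini-Hochberg adjustment over 16039 genes; a call is an adjusted p under 0.05. SEs were derived from the fold change and the F statistic, and intervals use the t distribution with the test's degrees of freedom, which makes them approximate. The limit of 3 counts covers counting error only. The procedure was tested on simulated data. It recovered 17.9% of 1.5-fold, 50.7% of 2-fold and 74.2% of 4-fold changes, and 9 of its 104 calls were false. The simulated data held 67, 67 and 66 changed genes at these folds among 15434, and no library was set apart from its group. The recovered shares may therefore differ in the real libraries. Alternatives used DESeq2 1.42.0, limma 3.58.1, other scalings and filters, a replicate block, and fits without single libraries; the fit without both libraries that stand apart was chosen after seeing the data.

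Members and gene lists were chosen with earlier results of these data known. Values in all libraries are given for called members, for the 12 with the smallest p and for the 3 most abundant of each role; some members of low level are given as ranges instead. Fzd10, Wif1 and Axin2 were added after their values were seen. Of the other pathway lists, called genes and otherwise the 2 with the smallest p are named; Nkd2 was named for its call in an alternative.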

Additional observations from a re-analysis of the deposited data

Results flagged for a closer look

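In 3 members 1 library lay far from the rest of its group by Dixon's test at the 95% level, out of 64 groups tested. Chance flags about 1 in 20, but Fzd10 and Wif1 were added after their values were seen, so that rate does not hold here. The 64 groups do not cover all 47 members that passed the filter, so the 3 are not a full list. Lgr6 stood at 5.24 CPM in Il17ra-/- replicate 5, against 0 to 0.976 CPM in the others of that group. Fzd10 stood at 15.1 CPM in wild-type replicate 4, against 4.74 to 5.87 CPM in the other wild-type libraries. Wif1 stood at 101 CPM in Il17ra-/- replicate 1, against 50.02 to 58.6 CPM in the others.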

How the results depend on the processing

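Over 19 alternatives the number of called genes was 491 in the main analysis, 1017 with DESeq2, and 275 to 567 without single libraries (323 without Il17ra-/- replicate 1 and 275 without Il17ra-/- replicate 3). Called members numbered 0 to 1 without single libraries and 0 otherwise, and the 1 was Fzd10 without wild-type replicate 4. Called genes among the other pathway genes numbered 3 in the main analysis, 1 with a replicate block, 5 without both libraries that stand apart and 1 to 4 without single libraries (1 without Il17ra-/- replicate 2 and 4 without wild-type replicate 2). Deviations of libraries from their group mean correlated at −0.02 to 0.06 between same-numbered libraries, and at −0.04 to 0.04 between the others. By this measure 2 of 4 wild-type libraries correlated best with their own number, so the values do not settle whether the numbers pair them. The block gave 363 called genes and 0 called members. Scaling by totals only called 330 genes higher and 232 lower, against 217 and 274.

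Some log2 fold changes of single genes changed sign, and the cause was not tested. Without both libraries that stand apart the value was −0.050 for Lrp6, −0.019 for Lrp5, 0.33 for Rspo3 and −0.0058 for Axin1. With totals only it was 0.0086 for Rspo3, 0.020 for Lgr4, 0.048 for Tcf7l1 and 0.063 for Ctnnb1. With the replicate block it was 0.049 for Rspo3, −0.52 for Lgr6, 0.0025 for Tcf7l1 and −0.028 for Sfrp2. With limma voom it was 0.096 for Rspo3 and 0.0048 for Ctnnb1, and without a filter 0.0039 for Tcf7l1 and 0.017 for Ctnnb1. Without single libraries the value ran from −0.016 to 0.28 for Lrp6 (below 0 without wild-type replicate 2), −0.21 to 0.41 for Rspo3, −0.14 to 0.65 for Rspo4, −0.13 to 0.029 for Lgr4, −0.26 to 1.75 for Lgr6 (below 0 without Il17ra-/- replicate 5), −0.053 to 0.059 for Tcf7l1, −0.069 to 0.066 for Ctnnb1 and −0.049 to 0.16 for Sfrp2. At these depths a count of 0 allows up to 0.0638 to 0.0984 CPM.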
